A study of Mus musculus with 12 samples.

Results

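Of the 17090 genes in the deposited expression table, 9 encode the integrin subunits described here: the alpha chains Itga2, Itga3, Itga5, Itga6 and Itgav and the beta chains Itgb1, Itgb4, Itgb5 and Itgb6. They were taken by gene symbol as subunits known from keratinocytes, with earlier results of these data known. All 9 passed the filter on low values, and their level lay between 46.0 and 2366 CPM (read counts scaled to a common effective library size) in every library.

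Integrins are receptors made of an alpha and a beta chain that tie cells to the extracellular matrix and to the actin or keratin cytoskeleton inside. In the basal layer of the epidermis the alpha-3/beta-1 and alpha-6/beta-4 pairs bind laminin of the basement membrane, alpha-6/beta-4 within hemidesmosomes, and alpha-2/beta-1 binds collagen. Alpha-5/beta-1 binds fibronectin, and alpha-v pairs with beta-5 to bind vitronectin or with beta-6 to bind fibronectin, tenascin and the latency peptide of TGF-beta, which alpha-v/beta-6 can activate. YAP1 and TAZ, coactivators of the TEAD transcription factors, respond to adhesion and tension that integrins transmit.

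Messenger RNA was sequenced in 12 libraries of primary tail skin keratinocytes from K14-SmoM2 mice, taken 5 weeks after tamoxifen. This model of basal cell carcinoma has an active form of Smoothened, the Hedgehog signal transducer, in epidermis that expresses keratin 14. The siYT group (3 libraries) received pooled siRNAs against YAP1 and TAZ, and its control siCON (3 libraries) a non-targeting siRNA, both at 8 pmol per cm2. The TEADi group (3 libraries) received an adenovirus expressing the TEAD inhibitor TEADi, and its control GFP (3 libraries) an adenovirus expressing green fluorescent protein, both at a multiplicity of infection of 25 and, per the labels, with a CMV promoter. All 4 groups carried K14-SmoM2, grew in medium with 60 µM calcium, 10 ng/ml EGF and 10 µM Y-27632, received siRNA or virus on day 1 of plating and were collected after a further 48 h. The labels give neither the age nor the number of mice. Nor do they say whether the 3 libraries of a group stem from different cultures, and each p-value thus reflects the variation among these samples alone, possibly technical. No untransfected or wild-type cells were compared here.

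Each library held 20.04 to 29.1 M reads, as estimated from the step between low values. Yap1 lay between 62.5 and 71.7 CPM in siYT libraries, against 187 to 206 CPM in siCON libraries, and Wwtr1, which encodes TAZ, lay between 26.1 and 30.02 CPM in siYT, against 52.9 to 56.5 CPM in siCON. In TEADi libraries Yap1 lay between 175 and 183 CPM, against 208 to 213 CPM in GFP libraries. Wwtr1 lay between 77.5 and 81.9 CPM in TEADi, against 55.0 to 59.9 CPM in GFP. The 7 keratinocyte markers summed to 33690 to 38367 CPM over all libraries, most of it from the basal keratins Krt5 and Krt14. The list did not move as one (4 rose and 2 fell in siYT, 4 rose and 3 fell in TEADi). The suprabasal keratin gene Krt10 averaged 694.8 ± 70.1 CPM in siYT and 43.2 ± 4.77 CPM in siCON (log2 change 3.98), and 393 ± 3.35 CPM in TEADi and 49.6 ± 9.32 CPM in GFP (2.98). Krt1, its partner, averaged 1944 ± 220.3 CPM in siYT and 338 ± 27.8 CPM in siCON (2.52), and 1211 ± 35.8 CPM in TEADi and 399.5 ± 31.5 CPM in GFP (1.60). Epcam fell in both (-0.74 and -1.08), and Krt5 fell by 0.28 and 0.22. The other 3 markers did not follow them: Trp63 rose by 0.45 in siYT and by 0.19 in TEADi. Krt14 rose by 0.25 in TEADi, and its change of 0.13 in siYT did not pass (limma, adjusted p = 0.105). Cdh1 rose by 0.32 in siYT and fell by 0.46 in TEADi. With equal column totals 3 of the 7 rose and 3 fell in TEADi. Of fibroblast markers 8 of 9 had a row, and their sum was 13.6 to 19.2 CPM in siYT, 9.08 to 12.6 CPM in siCON, 11.1 to 12.1 CPM in TEADi and 8.21 to 8.94 CPM in GFP. The 5 of 6 endothelial markers with a row summed to 8.95 to 12.5 CPM and the 1 of 4 platelet markers to 1.70 to 3.23 CPM over all libraries. The 7 melanocyte markers summed to 11.8 to 13.7 CPM in siYT, against 9.36 to 10.6 CPM in siCON, and to 10.3 to 12.2 CPM in TEADi, against 8.67 to 9.91 CPM in GFP. The 2 of 4 smooth muscle and pericyte markers with a row, Myh11 and Cnn1, summed to 0.734 to 0.845 CPM in siYT, against 2.51 to 2.76 CPM in siCON, and to 0.973 to 1.84 CPM in TEADi, against 3.52 to 4.02 CPM in GFP. Immune markers (5 of 9 with a row) summed to 40.5 to 41.7 CPM in siYT, against 12.1 to 13.1 CPM in siCON, and to 32.02 to 34.2 CPM in TEADi, against 12.007 to 14.5 CPM in GFP. Most of that sum was the lysosomal gene Cd68, at 37.6 to 38.9 CPM in siYT, while Ptprc, the pan-leukocyte marker, did not exceed 0.508 CPM in any library. Of the 3 immune markers tested, 2 rose and 1 fell in each comparison. In siYT and TEADi, Cd68 rose (1.83 and 1.47), as did Itgam (0.46 and 0.79), while Csf1r fell (-0.66 and -0.85). Csf1r passed the filter only through siCON and GFP, where it is high. Because these are bulk samples, fewer cells of a type and less RNA per cell cannot be told apart, and the part of these markers, the suprabasal keratins included, in the integrin values was not tested.

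With knockdown of YAP1 and TAZ 8 of the 9 subunits fell and Itgb5 rose. The median log2 change of the 9 was -0.68, beside -0.03 over the 12966 genes tested. Of all genes tested, 68.9% passed, 36.1% lower and 32.7% higher, by the same rule, limma on log2(CPM + 1) with a Benjamini-Hochberg adjusted p below 0.05, two-sided. With TEADi 6 subunits fell, Itga6 and Itga5 rose and Itgb5 did not pass, against 59.8% of all genes (26.3% lower and 33.5% higher), and the median of the 9 was -0.29, beside 0.03 over all genes. The siYT and siCON libraries did not overlap for any of the 9 subunits (8 lower and 1 higher, against 37.8% and 34.4% of all genes), and the TEADi and GFP libraries did not overlap for 8 of them (6 lower and 2 higher, against 28.5% and 35.5%). A subunit's coefficient of variation within a group was 1.205% to 6.97%.

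**Figure D1:**
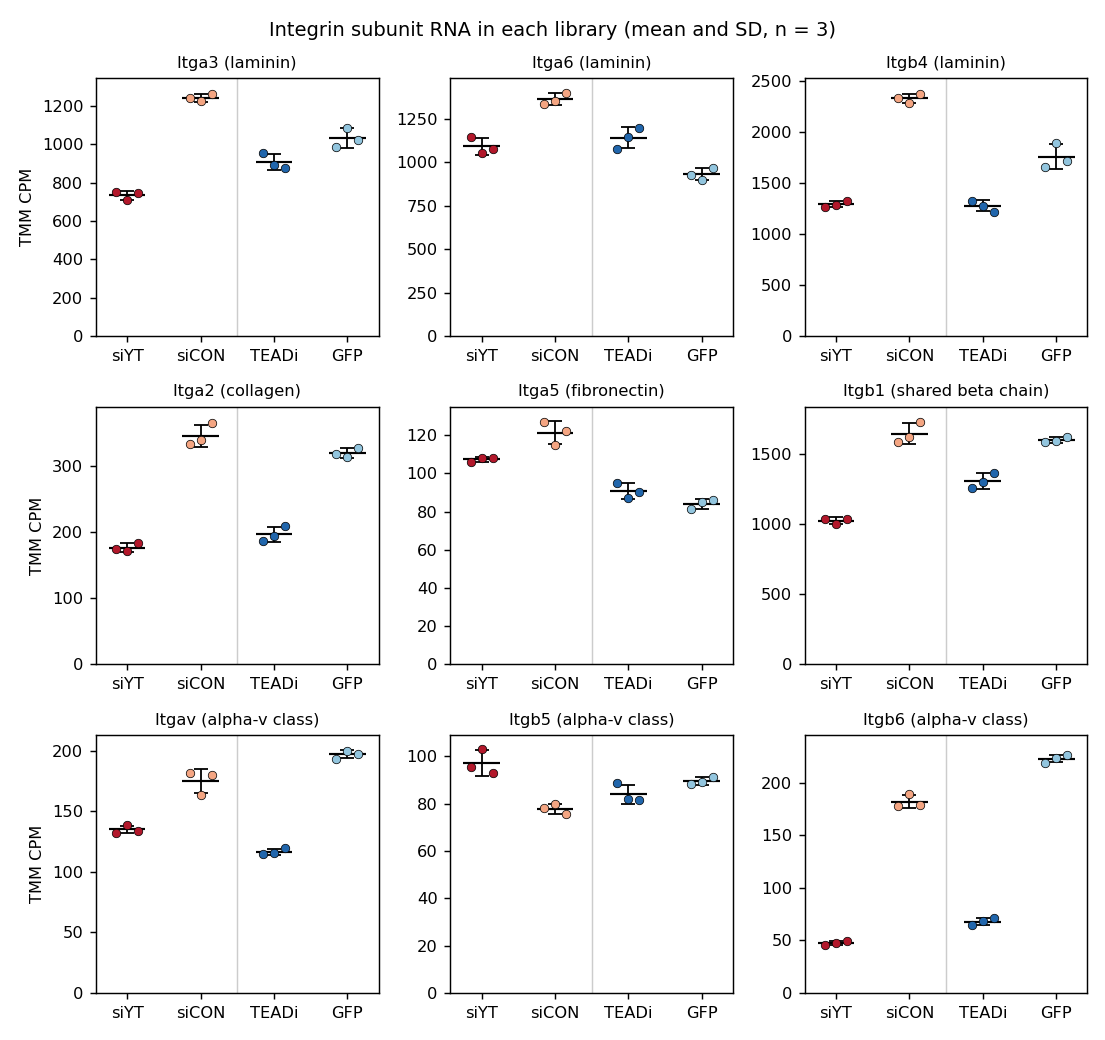
Level of each integrin subunit in TMM-scaled CPM (y axis, from 0) in the libraries of siYT, siCON, TEADi and GFP (x axis). Points are libraries, bars the mean and SD of 3. Itgb6 shows the widest gap, with 46.0 to 49.6 CPM in siYT against 178 to 189 CPM in siCON, and Itga6 lies below its control in siYT and above it in TEADi.

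Itgb6, the beta chain that directs alpha-v to fibronectin, tenascin and latent TGF-beta, had the largest change of the 9 in both comparisons. Itgb6 (chromosome 2, 60598292 to 60722643, minus strand) had 46.0, 47.2 and 49.6 CPM in siYT libraries, against 178.0, 188.9 and 179.2 CPM in siCON libraries. It had 64.3, 68.5 and 71.04 CPM in TEADi libraries, against 219.2, 223.3 and 226.4 CPM in GFP libraries. Every library of siYT and TEADi lay below every control library. The log2 change was -1.91 in siYT (SE 0.0434; limma, adjusted p = 2.5e-17) and -1.70 in TEADi (SE 0.0434; limma, adjusted p = 8.62e-17), so that the mean was 0.261 times that of siCON and 0.305 times that of GFP. It was the only subunit to pass with a fall of at least 2-fold on this scale in either comparison, which 2.3% of all genes did in siYT and 2.71% in TEADi; with equal column totals Itga2 (-1.16) and Itgb4 (-1.04) did so too in siYT.

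Itgav, the alpha chain shared by Itgb5 and Itgb6, fell by a smaller amount. Itgav (chromosome 2, 83724397 to 83806916, plus strand) had 132, 138 and 134 CPM in siYT, against 182, 163 and 179.5 CPM in siCON. It had 115, 115 and 119.5 CPM in TEADi, against 193, 199.7 and 197 CPM in GFP. Neither comparison showed overlap between its groups. The log2 change was -0.37 in siYT (SE 0.0414; limma, adjusted p = 1.46e-07; -0.56 with equal column totals) and -0.75 in TEADi (SE 0.0414; limma, adjusted p = 5.72e-12), a larger fall with the inhibitor than with the knockdown. An antisense RNA gene, Gm13684, shares 634 exon bases with Itgav, and strand use in counting is not given, so reads of the pair cannot be told apart.

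Itgb5, the vitronectin receptor beta chain, went the other way in siYT. Itgb5 (chromosome 16, 33829665 to 33949338, plus strand) had 95.5, 103 and 92.7 CPM in siYT, against 78.2, 79.9 and 75.7 CPM in siCON. It had 88.5, 82.1 and 81.3 CPM in TEADi, against 88.1, 88.9 and 91.3 CPM in GFP, where the groups overlap. Itgb5 rose by 0.31 in siYT (SE 0.0456; limma, adjusted p = 4.94e-06), or by 0.12 with equal column totals, and its TEADi change of -0.09 did not pass (95% interval -0.19 to 0.0046; limma, adjusted p = 0.0942; 0.000594 to 0.26 over its alternatives). It passed as a fall when columns were scaled to the same total (-0.19, limma, adjusted p = 0.00107), with quantile normalization (-0.21, adjusted p = 0.000594) or without TEADi A (-0.13, adjusted p = 0.0276). The authors' deposited table gives Itgb5 a TEADi to GFP ratio of 0.939 with an adjusted p-value of 0.111.

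Within the libraries, the order of the partner chains of alpha-v differed between groups. Itgb6 had 0.341 to 0.371 CPM per CPM of Itgav in siYT, against 0.98 to 1.16 in siCON. The same ratio was 0.560 to 0.595 in TEADi, against 1.12 to 1.15 in GFP. Itgb5 had 0.692 to 0.746 CPM per CPM of Itgav in siYT, against 0.422 to 0.489 in siCON, and 0.680 to 0.772 in TEADi, against 0.445 to 0.463 in GFP. Per kilobase of exon, the level of Itgb6 was 0.228 to 0.268 times that of Itgb5 in siYT libraries and 1.14 to 1.183 times in siCON libraries, and 0.363 to 0.437 times in TEADi libraries and 1.24 to 1.26 times in GFP libraries. Ratios within a library do not depend on the factor that scales its column, and these are RNA ratios only; the CPM ratios are not per length and serve to compare groups, not subunits.

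**Figure D2:**
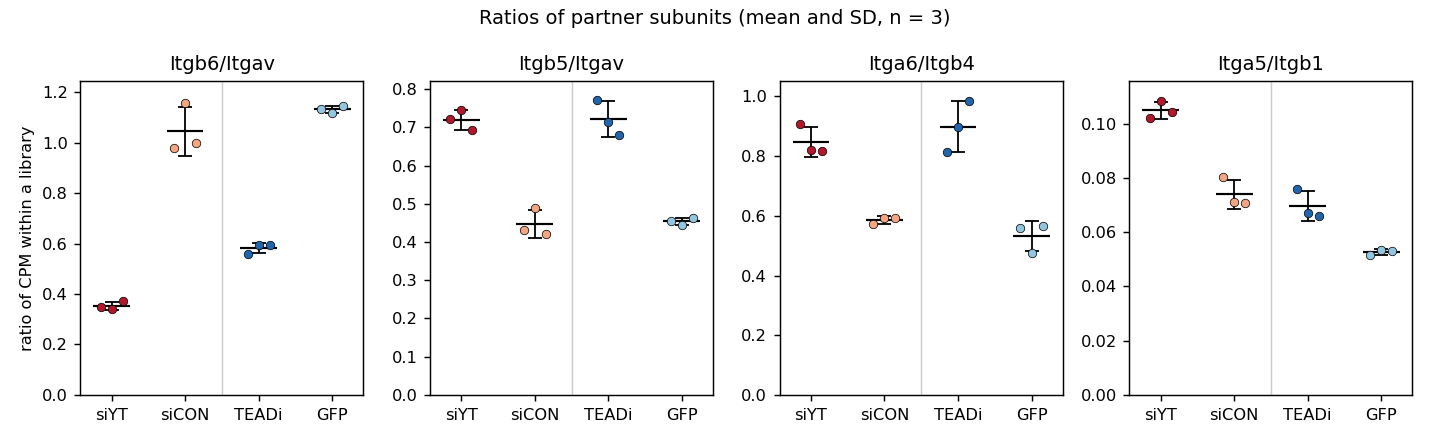
Ratio of CPM between partner subunits within each library (y axis, from 0) in siYT, siCON, TEADi and GFP (x axis). Points are libraries and bars the mean and SD of 3. Itgb6 to Itgav was 0.341 to 0.371 in siYT against 0.98 to 1.16 in siCON, while Itgb5 to Itgav, Itga6 to Itgb4 and Itga5 to Itgb1 lay above their controls in siYT and in TEADi.

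Among the laminin receptors, Itgb4 and Itga3 fell in both comparisons and Itga6 fell in one and rose in the other. Itgb4 (chromosome 11, 115974709 to 116008412, plus strand), whose long tail anchors keratin filaments through plectin, had 1266, 1282 and 1322 CPM in siYT, against 2329.8, 2283 and 2366 CPM in siCON. It had 1325, 1277 and 1217 CPM in TEADi, against 1659.5, 1894 and 1716 CPM in GFP. All siYT and TEADi libraries were below their controls. The log2 change was -0.85 in siYT (SE 0.0505; limma, adjusted p = 9.81e-12) and -0.46 in TEADi (SE 0.0505; limma, adjusted p = 1.5e-07). The lincRNA gene B230344G16Rik lies antisense to Itgb4 and shares 537 exon bases with it.

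Itga3 (chromosome 11, 95044474 to 95076801, minus strand), a laminin-binding partner of beta-1, had 749.9, 707 and 744 CPM in siYT, against 1241, 1224 and 1264 CPM in siCON. It had 955, 893 and 876 CPM in TEADi, against 988, 1088 and 1021 CPM in GFP, groups that lie close but do not overlap. Its log2 change was -0.76 in siYT (SE 0.0457; limma, adjusted p = 1.2e-11) and -0.18 in TEADi (SE 0.0457; limma, adjusted p = 0.00177), the TEADi value reaching -0.29 with quantile normalization.

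Itga6 (chromosome 2, 71745616 to 71858416, plus strand), the only partner of beta-4, had 1148, 1053 and 1079 CPM in siYT, against 1333, 1355 and 1401 CPM in siCON. It had 1078, 1144 and 1199.97 CPM in TEADi, against 927, 901 and 968 CPM in GFP. The 3 siYT libraries were below siCON and the 3 TEADi libraries above GFP. Itga6 fell by 0.32 in siYT (SE 0.048; limma, adjusted p = 7.9e-06) and rose by 0.29 in TEADi (SE 0.048; limma, adjusted p = 3.21e-05). With equal column totals these changes were -0.51 and 0.19, and with quantile normalization -0.54 and 0.20, and all passed. The ratio of Itga6 to Itgb4 was 0.816 to 0.907 in siYT, against 0.572 to 0.594 in siCON, and 0.813 to 0.986 in TEADi, against 0.476 to 0.565 in GFP, without overlap in either comparison.

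Itga2 (chromosome 13, 114833081 to 114932100, minus strand), the collagen-binding partner of beta-1, had 174.6, 171 and 183 CPM in siYT, against 333, 339 and 364 CPM in siCON. It had 187, 194 and 209 CPM in TEADi, against 318, 313 and 327 CPM in GFP. The groups were far apart in both comparisons. It fell by 0.96 in siYT (SE 0.0456; limma, adjusted p = 2.67e-13) and by 0.70 in TEADi (SE 0.0456; limma, adjusted p = 7.28e-11), the second largest fall in siYT.

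Itgb1 (chromosome 8, 128685654 to 128733200, plus strand), the beta chain that alpha-2, alpha-3 and alpha-5 share, had 1038, 997 and 1038 CPM in siYT, against 1581, 1618 and 1726 CPM in siCON. It had 1253, 1297 and 1364 CPM in TEADi, against 1579.8, 1589 and 1621 CPM in GFP. Each group lay below its control without overlap. The log2 change was -0.68 in siYT (SE 0.0454; limma, adjusted p = 6.46e-11) and -0.29 in TEADi (SE 0.0454; limma, adjusted p = 1.63e-05). Relative to Itgb1, Itga2 was lower in siYT (0.168 to 0.177 CPM per CPM of Itgb1, against 0.209 to 0.211 in siCON) and in TEADi (0.149 to 0.153, against 0.197 to 0.202 in GFP).

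Itga5 (chromosome 15, 103344286 to 103366763, minus strand), the fibronectin receptor alpha chain, moved least among the alpha chains. It had 106, 108 and 108 CPM in siYT, against 127, 115 and 122 CPM in siCON. It had 95.1, 87.03 and 90.1 CPM in TEADi, against 81.3, 84.8 and 86.0 CPM in GFP. Itga5 fell by 0.17 in siYT (SE 0.0438; limma, adjusted p = 0.00166; -0.36 with equal column totals) and rose by 0.11 in TEADi (SE 0.0438; limma, adjusted p = 0.0379; 0.0211 to 0.928 over its alternatives). The TEADi call was lost without GFP A (adjusted p = 0.153), GFP B (0.0504), TEADi A (0.176) or TEADi C (0.0578), with the libraries of these groups fitted alone (0.0512) or without the trend (0.0759), and its value was 0.01 with equal column totals (adjusted p = 0.803) and 0.0051 with quantile normalization (adjusted p = 0.928). The authors' deposited table gives it a ratio of 1.08 with an adjusted p-value of 0.0461. The ratio of Itga5 to Itgb1 was 0.102 to 0.108 in siYT, against 0.0709 to 0.0802 in siCON, and 0.0661 to 0.0759 in TEADi, against 0.0514 to 0.0534 in GFP.

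**Figure D3:**
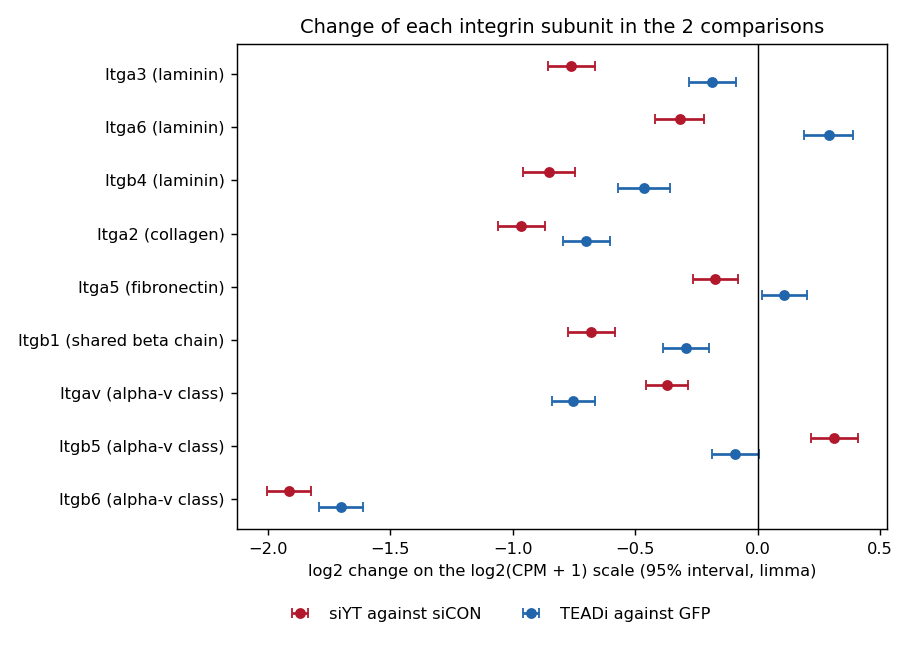
Log2 change of each integrin subunit (x axis, log2(CPM + 1) scale) in siYT against siCON and in TEADi against GFP, with 95% intervals from limma (3 libraries per group). Itgb6 lies at -1.91 and -1.70, far from the other 8, and Itga6 lies on opposite sides of 0.

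The test of the difference between the knockdown effect and the inhibitor effect passed for all 9 subunits, as it did for 51.5% of all genes. The comparisons have separate controls, delivered by lipid carrier and by virus, so a difference between knockdown and inhibitor cannot be told apart from 1 between the delivery systems. The siYT effect was lower than the TEADi effect for 7 subunits, by most for Itga6 (-0.61, SE 0.0678; limma, adjusted p = 5.68e-07) and Itga3 (-0.58, SE 0.0646; limma, adjusted p = 6.15e-07). For Itgav (0.38, SE 0.0585; limma, adjusted p = 2.46e-05) and Itgb5 (0.40, SE 0.0644; limma, adjusted p = 3.74e-05) the siYT effect was the higher. For Itgb6 the difference was -0.21 (SE 0.0613; limma, adjusted p = 0.00711), small beside its falls.

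The control groups also differed from each other. GFP against siCON, 4 subunits were lower and 3 higher, beside 21.8% and 18.7% of all genes (40.4% in all). Libraries did not overlap for 5 lower and 3 higher subunits, against 26.2% and 23.5% of all genes, and 0 subunits passed with a fall of at least 2-fold, which 0.393% of all genes did. Itga6 was at 932 ± 34.2 CPM in GFP and 1363 ± 34.5 CPM in siCON (SD, n = 3 each), a log2 change of -0.55 (limma, adjusted p = 3.31e-08), and Itga5 was at 84.03 ± 2.46 CPM in GFP and 121 ± 6.04 CPM in siCON, a change of -0.52 (limma, adjusted p = 1.83e-08). Itgb4 (-0.41) and Itga3 (-0.27) were lower in GFP too, and Itgb6 (0.29), Itgb5 (0.20) and Itgav (0.17) were higher. Itgb1 (-0.04, limma, adjusted p = 0.52) and Itga2 (-0.11, limma, adjusted p = 0.0597; 0.0141 to 0.27 over its alternatives) did not pass; Itga2 passed with the replicate block (0.0141), without siCON A (0.045), without TEADi A (0.0476) or without TEADi C (0.0387). This comparison shares its libraries with the other 2: Itga6 was highest in siCON and lowest in GFP, with 1094 ± 48.9 CPM in siYT and 1141 ± 61.2 CPM in TEADi between them.

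To order the subunits by level, CPM was divided by kilobases of exon (the union of a gene's GENCODE exons). In all 4 groups Itgb1, Itgb4, Itga3 and Itga6 formed an upper set, at 103 to 402 CPM per kilobase as group means, and the other 5 a lower set at 6.69 to 48.4. Itgb1 led in each group, with 251 ± 5.86 CPM per kilobase in siYT, 402 ± 18.5 in siCON, 320 ± 13.7 in TEADi and 391 ± 5.30 in GFP (SD, n = 3). Next came Itgb4, Itga3 and Itga6 in each group, and the ranges of Itga3 and Itga6 overlapped in siYT. Itgb6 was the lowest of the 9 in siYT (6.69 ± 0.265 CPM per kilobase) and in TEADi (9.55 ± 0.480), while in siCON it stood at 25.6 ± 0.845, overlapping Itga5 (24.6 ± 1.22), and in GFP at 31.4 ± 0.506, above Itgb5, Itgav and Itga5. With the length of the longest coding transcript in place of the exon union, an alternative added after seeing the data, the upper 4 and Itgb6's last place in siYT and TEADi were unaltered, but Itga6 moved above Itga3 in every group and above Itgb4 in siYT and TEADi.

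Promoter windows were available for 7 of the 9 subunits from RefSeq (build GRCm38.p6), and 3 are shown because Itgb6 and Itga2 had the largest falls in siYT and Itgb1 holds the motif searched. Each runs 5′ to 3′ on the gene's strand over the bases before the transcription start that lie outside the annotated gene. Capitals mark GGAATG or its reverse complement CATTCC, the core of the TEAD binding motif, searched on both strands.
Itgb6, chr2:60722644-60722853, minus strand: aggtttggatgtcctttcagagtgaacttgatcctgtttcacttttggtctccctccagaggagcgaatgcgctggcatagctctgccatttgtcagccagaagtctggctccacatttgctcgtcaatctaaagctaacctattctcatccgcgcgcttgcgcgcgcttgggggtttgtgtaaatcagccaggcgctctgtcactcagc
Itga2, chr13:114932101-114932350, minus strand: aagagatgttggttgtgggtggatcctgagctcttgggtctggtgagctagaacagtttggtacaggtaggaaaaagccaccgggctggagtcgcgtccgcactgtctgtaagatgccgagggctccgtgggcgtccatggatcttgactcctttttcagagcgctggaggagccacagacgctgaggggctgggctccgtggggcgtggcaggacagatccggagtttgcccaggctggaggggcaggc
Itgb1, chr8:128685404-128685653, plus strand: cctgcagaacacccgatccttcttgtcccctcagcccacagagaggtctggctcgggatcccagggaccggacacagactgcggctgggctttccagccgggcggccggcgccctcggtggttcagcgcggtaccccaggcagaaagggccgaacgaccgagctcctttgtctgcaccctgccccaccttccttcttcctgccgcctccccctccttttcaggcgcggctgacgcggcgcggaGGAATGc
The hexamer occurred in 1 of 9 windows of 250 bases before a start of these 7 genes, that of Itgb1, from base -7 to base -2 before the start, and in 12.6% of all 32851 RefSeq windows. The AP-1 motif TGANTCA occurred, on either strand, in 0 of the 9 windows and in 6.75% of all. Enhancers, from which TEAD factors are known to act, were not searched.

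The subunit whose group means varied most was Itgb6, and the 3 genes most like it among 8936 others with a mean of at least 10 CPM were Fhl1, a LIM domain protein gene, Wwc2, of the KIBRA family, and Dmd, the dystrophin gene, each with a Pearson r of 0.998 over the 12 libraries. The libraries form 4 groups and share their scaling, so this r mostly follows the group means and carries no p. Fhl1 had 10.0, 10.5 and 9.70 CPM in siYT, against 47.2, 48.5 and 42.3 CPM in siCON, and 14.6, 15.3 and 15.4 CPM in TEADi, against 58.8, 57.04 and 58.8 CPM in GFP. The log2 changes of Wwc2 were -1.17 in siYT and -1.01 in TEADi, and those of Dmd -1.50 and -1.41.

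Most genes of laminin chains and hemidesmosomes, which alpha-3/beta-1 and alpha-6/beta-4 attach to, were lower too. Of 11 laminin and hemidesmosome genes 10 fell and 1 rose in siYT (median log2 change -0.58) and 11 fell in TEADi (median -0.45). Beside this, 36.1% of all genes tested were lower and 32.7% higher in siYT, and 26.3% and 33.5% in TEADi. The hemidesmosomal plakin gene Dst fell in both: it averaged 501 ± 8.46 CPM in siYT and 1048 ± 38.3 CPM in siCON (-1.06), and 644 ± 25.0 CPM in TEADi and 1378 ± 35.1 CPM in GFP (-1.10; SD, n = 3 each). The laminin beta-2 gene Lamb2 rose by 0.15 in siYT (limma, adjusted p = 0.0142; 0.00909 to 0.544 over its alternatives), a call lost without siCON C (0.0523), with quantile normalization (0.0776) and, at -0.035, with equal column totals.

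Among genes of ligands with the RGD motif or related sites, 6 of 7 tested fell and 1 rose in each comparison. Their medians were -1.45 in siYT and -1.68 in TEADi. The shares of all genes, for these and the collagen genes below, were 36.1% lower and 32.7% higher in siYT. In TEADi they were 26.3% and 33.5%. Thbs1, the thrombospondin-1 gene, averaged 396 ± 38.4 CPM in siYT and 2825 ± 89.4 CPM in siCON (-2.84, SE 0.0612). Ccn2, a matricellular ligand and TEAD target, averaged 5.40 ± 0.467 CPM in TEADi and 65.3 ± 3.90 CPM in GFP (-3.37, SE 0.0888). Fn1, the fibronectin gene, fell by 1.45 in siYT and by 2.31 in TEADi, and Spp1, the osteopontin gene, was the riser in both (0.53 and 2.59). Both were chosen after their values were seen, and Spp1, at 0.877 ± 0.197 CPM in siCON and 0.842 ± 0.193 CPM in GFP, passed the filter through the groups where it is high. Of 5 collagen genes, Col5a2 fell in both comparisons (-2.28 and -2.24), while the list as a whole had 2 higher and 2 lower in siYT (median 0.36) and 1 higher and 2 lower in TEADi (median 0.01). The risers were Col1a1 and Col3a1 in siYT and Col3a1 in TEADi, genes chosen after their values were seen. They belong to the fibroblast markers as well, and the Col1a1 call was lost with equal column totals (0.28, limma, adjusted p = 0.117). Col3a1, at 0.839 ± 0.264 CPM in siCON and 0.293 ± 0.143 CPM in GFP, passed the filter only through siYT, where it is high. Its calls are therefore only a description. Col1a1 averaged 3.003 ± 1.019 CPM in siYT and 1.97 ± 0.615 CPM in siCON, beside the fibroblast marker sum of 13.6 to 19.2 CPM in siYT and 9.08 to 12.6 CPM in siCON, whose part in it was not tested.

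In the latent TGF-beta list, the other side of alpha-v/beta-6, 2 genes rose and 3 fell of 7 tested in siYT (median -0.09; 1 and 5 with equal column totals), and 1 rose and 5 fell in TEADi (median -0.71). Across all genes tested, 36.1% were lower and 32.7% higher in siYT, and 26.3% and 33.5% in TEADi, so the siYT counts lie near these shares. Tgfb3, a ligand gene whose latency peptide carries an RGD site, averaged 10.7 ± 0.746 CPM in siYT and 51.1 ± 2.19 CPM in siCON (-2.16, SE 0.0662), and 8.61 ± 0.452 CPM in TEADi and 27.0 ± 1.93 CPM in GFP (-1.54, SE 0.0662). The latent TGF-beta binding protein gene Ltbp4 rose by 0.93 in siYT and by 0.55 in TEADi. Tgfb1 was at 32.4 CPM in siYT and 34.4 CPM in siCON, and at 33.1 CPM in TEADi and 31.3 CPM in GFP, and passed in neither comparison (limma, adjusted p = 0.281 and 0.354), a gene chosen after its values were seen.

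Inside the cell, 21 of 27 tested genes of integrin activation and the adhesion plaque fell and 1 rose in siYT (median -0.51; 26 and 1 with equal column totals), and 21 fell and 3 rose in TEADi (median -0.44). Over all genes tested, 36.1% were lower and 32.7% higher in siYT, and 26.3% and 33.5% in TEADi. The riser in siYT was Fermt3, the kindlin gene of blood cells, chosen after its values were seen. It had 3.23 ± 0.243 CPM in siYT and 0.443 ± 0.11 CPM in siCON, and was also a riser in TEADi (0.79). Every siCON and GFP library of Fermt3 was below 1 CPM, so it passed the filter only through siYT and TEADi, where it is high. The largest fall in both, among genes of at least 10 CPM, was that of Nedd9, a Cas family scaffold gene, with 125 ± 3.80 CPM in siYT and 298 ± 4.50 CPM in siCON (-1.25), and 122 ± 7.64 CPM in TEADi and 282 ± 1.29 CPM in GFP (-1.20). Vasp, an actin polymerisation gene, rose by 0.44 in TEADi and fell by 0.19 in siYT (-0.39 with quantile normalization). Genes chosen after their values were seen include the kindlins Fermt1 (-0.98 in siYT, -0.52 in TEADi) and Fermt2 (-1.04 and -0.75), which bind beta chain tails. Those of the complex that links beta-1 to actin were Ilk (-0.86 and -0.73), Parva (-1.10 and -0.92) and Lims1 (-0.50 and -0.44). The talin gene Tln1 fell by 0.56 in siYT and by 0.18 in TEADi. Unlike these, Ptk2 of the same list, also chosen after its values were seen, rose by 0.26 in TEADi (limma, adjusted p = 2.18e-05). Its change of -0.08 in siYT did not pass (limma, adjusted p = 0.0824).

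**Figure D4:**
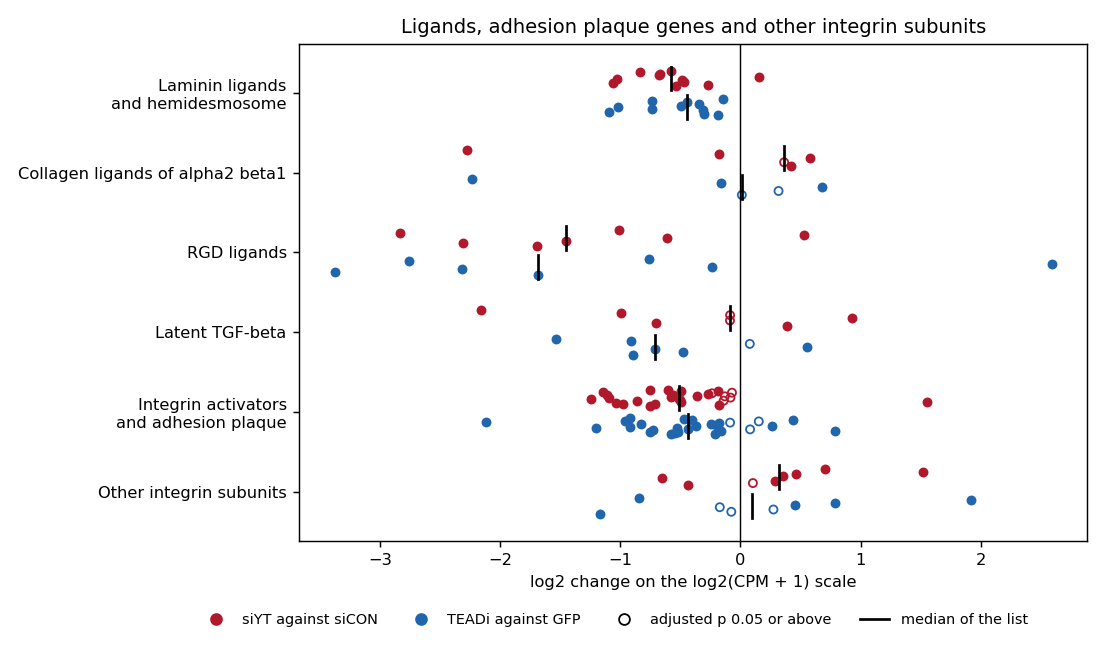
Log2 change (x axis, log2(CPM + 1) scale) of each tested gene of 6 lists (rows) in siYT against siCON and TEADi against GFP. Filled points passed at an adjusted p below 0.05, open points did not, and black bars are list medians. The row of RGD ligands, which also holds ligands with related sites, has medians of -1.45 and -1.68, and the other integrin subunits lie on both sides of 0.

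Of 18 other integrin subunit genes, 14 had a row and 8 passed the filter, most below 10 CPM. Of these 8, 5 rose and 2 fell in siYT (3 and 2 with equal column totals), and 3 rose and 2 fell in TEADi. Shares of all genes tested were 36.1% lower and 32.7% higher in siYT, and 26.3% and 33.5% in TEADi. Itgb7 passed the filter only through siYT and TEADi, where it is high. The list is short and mostly low, so the counts are only a description. Itgb8, whose product pairs with alpha-v and also binds latent TGF-beta, had 20.5, 22.2 and 19.09 CPM in siYT, against 11.3, 12.6 and 13.0 CPM in siCON. It had 7.003, 7.29 and 8.60 CPM in TEADi, against 14.2, 14.4 and 14.8 CPM in GFP. It rose by 0.70 in siYT (SE 0.0777; limma, adjusted p = 1.31e-07), fell by 0.85 in TEADi (SE 0.0777; limma, adjusted p = 1.2e-08), and the effects differed by 1.55 (SE 0.11; limma, adjusted p = 1.67e-09).

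The deposited scaling left higher column totals in siYT, 1017560 ± 1969 CPM, against 890008 ± 7846 CPM in siCON. With equal column totals the median of all genes moved by -0.17 in siYT, giving 2837 higher and 7146 lower in place of 4245 and 4687. For the other comparisons that scaling gave 3034 higher and 4719 lower in TEADi in place of 4339 and 3415, 2518 and 4657 in place of 3249 and 3424 for the difference of effects, and 3184 and 2214 in place of 2421 and 2823 for GFP against siCON. Under it Itgb5 still passed as higher in siYT, by 0.12, and the other 8 subunits as lower.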

How the data were processed

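The authors deposited CPM values for 17090 genes in 12 libraries, scaled by TMM as the deposited table is labelled. No library holds a 0. The authors' deposited comparison table gives a linear ratio and fold change, p-values, q-values and adjusted p-values per comparison, made by a test not given in the sources used here, and summed and maximum CPM signal per gene. Per the submitters' processing notes, cutadapt 1.18, STAR 2.7.0f, Partek 8.0.19.0819 and build mm10 were used. How reads shared by genes or strands were counted is not given there. Positions are the deposited ones with 1 subtracted from the end, after which 99.9% of genes matched GENCODE vM21. Depth is the column total over the step of low values. Of low values 83.6% to 85.6% lay within 0.1 read of a whole number, too few to recover reads for a count model.

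Tests used limma 3.58.1 (R 4.3.3) on log2(CPM + 1), a pseudocount of 1 CPM that understates changes of low genes. The 12966 genes reaching 1 CPM in 3 or more libraries entered 1 fit over all 12 libraries with a mean per group and a trended spread. A gene passed at an adjusted p below 0.05 over all genes tested. The script was tested on simulated data. Members, gene lists and tests were chosen with earlier results of these data known. Named from each list were its largest passing rise and fall in each main comparison, at a mean of at least 10 CPM. Others are marked. Alternatives were 8 changes of scaling, pseudocount, filter or model and leaving out each of the 12 libraries.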

Additional observations from a re-analysis of the deposited data

Results flagged for a closer look

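For all 9 subunits the knockdown effect and the inhibitor effect differed by a test of the difference itself (limma, adjusted over 12966 genes, of which 51.5% passed). The siYT effect minus the TEADi effect, on the log2 scale, was -0.26 for Itga2, -0.58 for Itga3, -0.28 for Itga5, -0.61 for Itga6, -0.39 for Itgb1, -0.39 for Itgb4 and -0.21 for Itgb6. It was 0.38 for Itgav and 0.40 for Itgb5. With quantile normalization that of Itgb1 was -0.59. Over the alternatives the adjusted p of these differences did not exceed 0.0345, the highest being that of Itgb6. Itga6 moved in opposite directions in the 2 comparisons (-0.32 and 0.29). Itga5 did so as deposited (-0.17 and 0.11), but its TEADi call was lost in 8 of 20 alternatives, at 0.013 with equal column totals and 0.0051 with quantile normalization. Groups of 3 libraries are too small for a test of outlying samples, and the design ties each effect to its own delivery system.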

How the results depend on the processing

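Over the alternatives, 695 of 711 member values kept their direction and their side of the threshold, 8 lost the call, 7 gained it and 1 changed sign. The 8 lost calls were all Itga5 in TEADi, and the 7 gained were Itgb5 in TEADi and Itga2 in GFP against siCON. The sign change was Itgb1 in GFP against siCON, which did not pass before or after, at 0.0034 with equal column totals. Of 419 values of genes named from the lists, 416 were unaltered, and Lamb2 in siYT lost its call in 2 and was -0.035 with equal column totals. Counts of genes passing stayed within 1.5 times under every alternative run, but of the directions the lower count in siYT was 7146 with equal column totals, against 4687 as deposited. The replicate block on the letters gave 4296 higher and 4765 lower in siYT, a total of 9061 beside 8932, and 7917 beside 7754 in TEADi. It gave the call of Itga2 in GFP against siCON (adjusted p = 0.0141) and altered no other member call. Nothing in the labels says the letters mark shared cultures. Correlations of deviations between same-lettered libraries ran from -0.03 to 0.16. Library siYT A correlated better with siCON C (0.05) than with siCON A (-0.01), and TEADi A better with GFP B (0.03) than with GFP A (-0.0036). Libraries TEADi B (0.15) and TEADi C (0.16) correlated best with the GFP library of the same letter. With the siCON library of the same letter, siYT B (0.09) and siYT C (0.03, beside 0.02 with siCON A) did so too. Depth limited none of the 9 subunits, whose lowest value was 46.0 CPM, but it limits the other integrin genes near 1 CPM.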

Other observations

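Some integrin genes at low levels changed as well, and the 3 given here were picked after their values were seen. Itgb7, a beta chain known from leukocytes, had 3.01, 3.49 and 2.98 CPM in siYT, against 0.3, 0.485 and 0.565 CPM in siCON, and 3.89, 3.19 and 3.52 CPM in TEADi, against 0.242, 0.152 and 0.203 CPM in GFP. Its log2 changes on the log2(CPM + 1) scale were 1.52 and 1.92. Every control library was below 1 CPM, so Itgb7 passed the filter on low values only through siYT and TEADi, and no p is given. The immune marker sum, mostly Cd68, was higher in the same groups (40.5 to 41.7 CPM in siYT, against 12.1 to 13.1 CPM in siCON). Csf1r of the same marker list was lower in siYT and TEADi (-0.66 and -0.85). The part of these markers in Itgb7 was not tested. Itga1, a collagen receptor alpha chain, averaged 2.57 ± 0.175 CPM in TEADi and 7.03 ± 0.705 CPM in GFP (SD, n = 3 each), a log2 change of -1.17 (limma, adjusted p = 5.43e-09). In siYT it averaged 2.15 ± 0.398 CPM and in siCON 3.23 ± 0.0818 CPM, a change of -0.43 (limma, adjusted p = 0.000822). Itga7, a laminin receptor alpha chain, averaged 6.35 ± 0.635 CPM in siYT and 10.5 ± 0.405 CPM in siCON (-0.66, limma, adjusted p = 1.74e-06), and its change of -0.17 in TEADi did not pass (limma, adjusted p = 0.0995).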
